A study of Mus musculus with 8 samples.

Results

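Acute phase proteins are plasma proteins whose blood levels change during inflammation. The liver makes most of them, under the cytokines Il6 and Il1b, and epithelial cells of the gut make some of them locally. A set of 8 such genes, listed by name, was followed in colon epithelial cells. They were Lbp, Saa1, Saa2, Saa3, Lcn2, Hp, C3 and Cp, out of 19505 genes with a row in the deposited table. Of these 8 genes, 7 had a row, with no choice between rows to make, and 6 passed the filter on low values and were tested among 13003 genes. C3, the central protein of the complement cascade, had no row under its symbol in the platform annotation used and was not analysed here. Hp fell below the filter and is given by its values only.

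The products act at different points. Lbp (lipopolysaccharide-binding protein) carries bacterial lipopolysaccharide to Cd14 and the Tlr4 receptor. Lcn2 (lipocalin) binds bacterial siderophores and so keeps iron from microbes. Cp (ceruloplasmin) carries copper and oxidises iron, and Hp (haptoglobin) binds free haemoglobin. Saa1, Saa2 and Saa3 (serum amyloid A) are small lipoprotein-associated proteins that bind retinol. In the gut, Il22 and other cytokines acting through Stat3 are known to raise Saa1, Saa2 and Lcn2 in epithelium.

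RNA came from 4 groups of C57BL/6J mice, with 2 Affymetrix arrays in each: mice lacking SMS2, a sphingomyelin synthase encoded by Sgms2, given dextran sulfate sodium (KO with DSS), the same knockout without DSS (KO untreated), wild type given DSS (WT with DSS), and wild type without it (WT untreated). DSS, which damages the epithelial lining of the colon, was given at 3.5% in the drinking water for 2 days. The labels call the arrays biological replicates and do not say whether an array holds 1 mouse or a pool, which cells lost Sgms2, or which part of the gene was removed. Values are the deposited log2 signals, which measure RNA and not protein. A signal was read against the background of its own array, taken as the 75th percentile of 5222 negative-control rows, which lay between 6.00 and 6.24. A difference passed the test when limma's p, adjusted by the Benjamini-Hochberg method over all genes tested, was under 0.05.

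The labels held for the targeted gene. Sgms2 had a mean signal of 6.91 ± 0.62 in KO with DSS and 7.32 ± 0.02 in KO untreated, against 11.09 ± 0.26 in WT with DSS and 10.78 ± 0.02 in WT untreated (SD, n = 2 each). All 11 epithelial markers were above background on every array, and their mean signal lay between 16.74 and 16.93. Of the 11, only Krt20 passed a test. It was lower with DSS in WT mice and with the genotypes averaged, where 4.04% and 5.52% of all tested genes passed. The Y-linked genes Eif2s3y, Uty and Kdm5d were above background on all 4 DSS arrays and under it on all 4 untreated arrays. DSS therefore cannot be told apart from this difference in any comparison of treated with untreated mice. Transcripts of exocrine pancreas were high on 2 arrays, replicate 1 of KO with DSS (list mean 7.26) and replicate 1 of WT with DSS (11.53), against 5.75 to 6.15 on the other arrays. For the members and related genes, values without these 2 arrays are given where a stated call changed.

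Among the 7 genes with values, Lbp, Lcn2 and Cp had higher signals in DSS arrays than in untreated arrays of both genotypes, while Saa1, Saa2 and Saa3 did not. Lbp passed the test in WT mice, Lcn2 passed it in KO mice, and all 3 passed it with the genotypes averaged. No member passed between KO and WT mice in either treatment. Saa1 had signals above 10.7 on every array, and Hp was under background on every array. A row's signal also depends on its probes, so levels were not compared between genes.

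**Figure D1:**
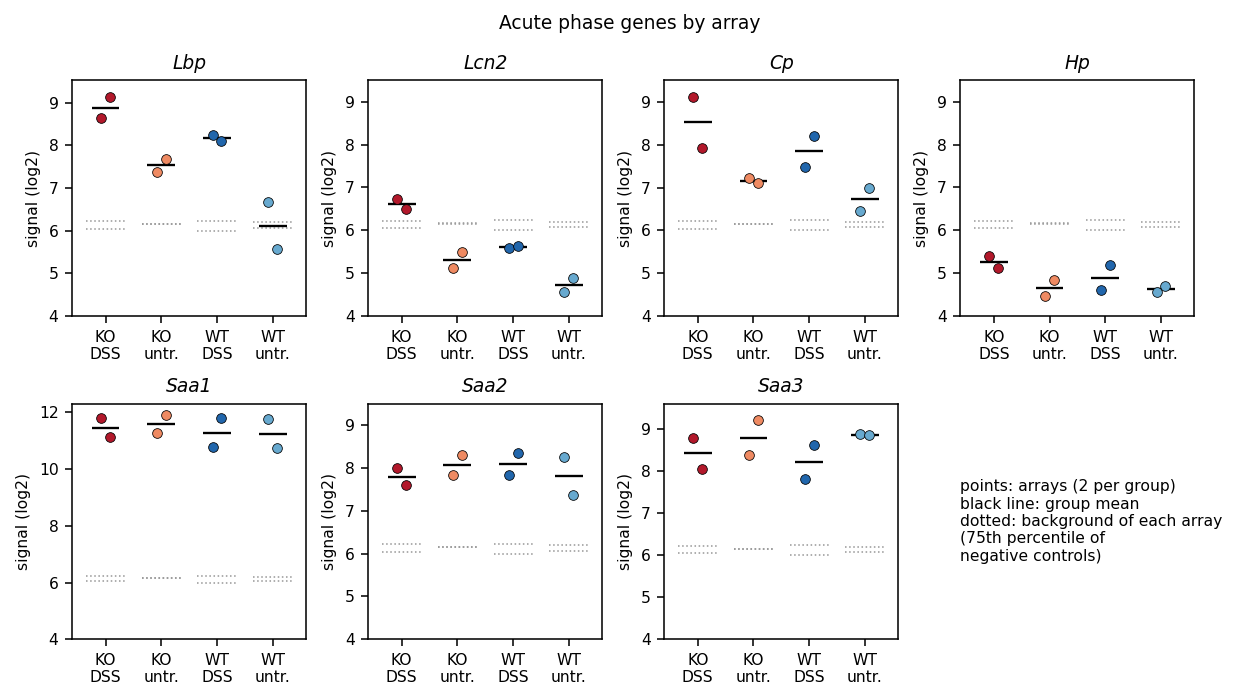
Log2 signal of the 7 acute phase genes with a row, by group (KO with DSS, KO untreated, WT with DSS, WT untreated). Points are arrays (2 per group), black lines are group means, and dotted lines mark the background of each array. Lbp, Lcn2 and Cp lie higher on the 4 DSS arrays than on the 4 untreated arrays. The Saa genes overlap between the 4 DSS and the 4 untreated arrays. In WT mice Saa3 is lower on both DSS arrays, a difference that did not pass. Hp lies under background on all 8 arrays.

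Lbp (row TC0200002426.mm.2, chromosome 2) had signals of 8.63 and 9.13 in KO with DSS, against 7.38 and 7.68 in KO untreated. In WT mice it had 8.25 and 8.10 with DSS, against 6.68 and 5.56 untreated. The lowest of the 4 DSS arrays was above the highest of the 4 untreated arrays, and 1 untreated WT array was under background. The DSS difference in WT mice was 2.05 ± 0.34 on the log2 scale (SE, adjusted p = 0.00538), and no exact fold is given because of the untreated array under background. In KO mice the difference was 1.35 ± 0.34 and did not pass (adjusted p = 0.129). Averaged over genotypes Lbp rose by 1.70 ± 0.24 (adjusted p = 0.00151). The untreated WT arrays lay 1.12 apart, a wider gap than that of 99.6% of tested genes in this group. Without the lower of them (replicate 2), the WT difference was 1.49 and did not pass (adjusted p = 0.0517).

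Lcn2 (TC0200003303.mm.2, chromosome 2) was above background only on the 2 KO arrays with DSS, at 6.72 and 6.49, against 5.12 and 5.49 in KO untreated. WT arrays had 5.59 and 5.62 with DSS, against 4.55 and 4.87 untreated, all under background. Again no DSS array was as low as any untreated array. Because the untreated KO arrays give only an upper limit, the rise in KO mice was at least 1.37-fold (log2 difference of the measured signals 1.31 ± 0.24, adjusted p = 0.0334). In WT mice both groups were under background, so no fold is given, and the measured signals differed by 0.89 ± 0.24 (adjusted p = 0.0707). Averaged over genotypes the difference was 1.10 ± 0.17 (adjusted p = 0.00257), with 2 of 4 DSS arrays and 0 of 4 untreated arrays above background. The call in KO mice was the less stable one. It did not pass when replicate 1 of KO with DSS (1.19, adjusted p = 0.148), replicate 1 of KO untreated (1.12, adjusted p = 0.297) or replicate 2 of KO untreated (1.49, adjusted p = 0.125) was left out. Leaving out either untreated WT array kept the difference at 1.31 and gave an adjusted p of 0.0589, and leaving out both arrays with pancreatic transcripts gave 1.19 (adjusted p = 0.0833).

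Cp (TC0300000137.mm.2, chromosome 3) was above background on all 8 arrays. It had 9.11 and 7.94 in KO with DSS, against 7.23 and 7.10 in KO untreated. In WT mice the signals were 7.49 and 8.22 with DSS, against 6.47 and 6.99 untreated. All 4 DSS arrays were above all 4 untreated arrays, but the DSS replicates of each genotype were far apart, by 1.18 in KO mice and 0.73 in WT mice. The difference was 1.36 ± 0.38 in KO mice (adjusted p = 0.179) and 1.12 ± 0.38 in WT mice (adjusted p = 0.151), and neither passed. With the genotypes averaged Cp rose by 1.24 ± 0.27 (adjusted p = 0.0190), a 2.36-fold higher signal. This averaged call was lost without replicate 1 of WT untreated (1.11, adjusted p = 0.0917), replicate 2 of WT with DSS (1.06, adjusted p = 0.0787) or replicate 2 of KO untreated (1.21, adjusted p = 0.0676). In KO mice single arrays moved the difference between 0.77 (not passing, without replicate 1 of KO with DSS) and 1.95 (adjusted p = 0.0213, without replicate 2). In WT mice they moved it between 0.76 (adjusted p = 0.556, without replicate 2 of WT with DSS) and 1.49 (adjusted p = 0.114, without replicate 1). Without both arrays with pancreatic transcripts it was 0.77 in KO mice (adjusted p = 0.347) and 1.49 in WT mice, where it passed (adjusted p = 0.00995).

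Hp (TC0800002905.mm.2, chromosome 8) stayed under background throughout, at 5.39 and 5.13 in KO with DSS, against 4.47 and 4.83 in KO untreated. WT arrays had 4.61 and 5.18 with DSS, against 4.57 and 4.70 untreated. No level or fold can be given for it.

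The 3 serum amyloid genes lie near each other on chromosome 7. Saa1 (TC0700003041.mm.2) had signals of 11.78 and 11.12 in KO with DSS, against 11.27 and 11.90 in KO untreated. In WT mice it had 10.76 and 11.81 with DSS, against 11.75 and 10.76 untreated. The groups overlapped in every comparison. The DSS difference was -0.14 ± 0.42 in KO mice (95% interval -1.06 to 0.78, adjusted p = 0.968) and 0.03 ± 0.42 in WT mice (-0.88 to 0.95, adjusted p = 0.984). These intervals leave room for changes of nearly 1 log2 unit either way, so at this number of arrays a change of that size was not detectable.

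Saa2 (TC0700000878.mm.2) had 7.999 and 7.59 in KO with DSS, against 7.84 and 8.29 in KO untreated. In WT mice it had 7.84 and 8.36 with DSS, against 8.25 and 7.37 untreated. Its DSS difference was -0.27 ± 0.33 in KO mice (adjusted p = 0.879) and 0.29 ± 0.33 in WT mice (adjusted p = 0.764), with overlapping groups in both. Saa3 (TC0700003039.mm.2) had 8.79 and 8.06 in KO with DSS, against 8.38 and 9.21 in KO untreated. WT arrays had 7.82 and 8.62 with DSS, against 8.89 and 8.85 untreated. In WT mice both DSS arrays were below both untreated arrays, with a difference of -0.65 ± 0.36 that did not pass (95% interval -1.43 to 0.14, adjusted p = 0.437). The share of all tested genes separated in this way was not counted. Between genotypes, both KO arrays were above both WT arrays for 16.1% of tested genes with DSS and 17.5% untreated. In KO mice the Saa3 groups overlapped and differed by -0.37 ± 0.36 (adjusted p = 0.836).

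Saa1 and Saa2 are close copies, and none of the sources used here says whether the probes of each row read only 1 of them. Their copies of sequence before the start site are shown because the rows of both genes moved together, as described further on. RefSeq (GRCm38.p6) gave upstream sequence for 6 of the 8 genes. The 250 bases before the start are printed for the 3 Saa genes (Saa1 chr7:46742981-46743230, minus strand, Saa2 chr7:46751583-46751832, plus strand, Saa3 chr7:46715677-46715926, minus strand) and for Lcn2 (chr2:32387740-32387989, minus strand). Capitals mark every match to the C/EBP-type motif TTNNGNAA on either strand.
Saa1: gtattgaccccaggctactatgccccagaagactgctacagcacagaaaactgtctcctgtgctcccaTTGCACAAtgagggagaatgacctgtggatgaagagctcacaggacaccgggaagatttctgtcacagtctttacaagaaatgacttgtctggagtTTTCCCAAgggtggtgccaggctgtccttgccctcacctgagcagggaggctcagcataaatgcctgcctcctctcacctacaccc
Saa2: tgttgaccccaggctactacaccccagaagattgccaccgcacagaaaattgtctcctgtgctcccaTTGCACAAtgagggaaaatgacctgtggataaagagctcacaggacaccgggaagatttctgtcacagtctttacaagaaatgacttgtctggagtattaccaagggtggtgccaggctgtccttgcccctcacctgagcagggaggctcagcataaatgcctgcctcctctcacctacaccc
Saa3: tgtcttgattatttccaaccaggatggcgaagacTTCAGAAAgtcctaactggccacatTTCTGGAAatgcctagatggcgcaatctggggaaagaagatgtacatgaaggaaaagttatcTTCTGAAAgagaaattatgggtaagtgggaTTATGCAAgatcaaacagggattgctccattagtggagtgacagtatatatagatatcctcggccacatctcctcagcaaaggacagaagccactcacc
Lcn2: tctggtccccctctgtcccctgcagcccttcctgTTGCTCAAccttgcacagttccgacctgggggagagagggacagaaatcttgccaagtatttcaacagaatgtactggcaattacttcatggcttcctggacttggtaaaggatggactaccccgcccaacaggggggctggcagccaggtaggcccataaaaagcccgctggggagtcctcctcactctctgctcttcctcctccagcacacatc
Aligned over these windows, Saa1 and Saa2 were identical in 238 of 251 columns (94.82%), whereas Saa3 shared 52.65% with Saa1 and 51.76% with Saa2. The C/EBP-type motif occurred 2 times before Saa1, 1 time before Saa2, 4 times before Saa3 and 1 time before Lcn2. In Saa1 and Saa2 the match farther from the start had the same 8 bases, TTGCACAA. The match nearer the start of Saa1, TTTCCCAA, was not found in Saa2. Such matches are common, since 36.85% of the 32851 windows of this length in the RefSeq table held at least 1. No match was found in these 4 windows to the STAT motif TTCNNNGAA (held by 7.02% of windows) or to the NF-kB motif (7.25%). None of the matches overlapped another motif searched.

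Set against all genes, the members' counts were as follows. In KO mice 1 of 6 tested members passed for DSS, against 0.931% of all tested genes (121 of 13003). In WT mice 1 of 6 passed, against 4.04% (525 genes), and with the genotypes averaged 3 of 6 passed, against 5.52% (718 genes). The median DSS difference over the 6 members was 0.58 in KO mice and 0.59 in WT mice, beside -0.04 and -0.05 over all tested genes. These medians do not describe a shift of the whole set. They fall between the Saa genes (-0.37 to -0.14 in KO mice, -0.65 to 0.29 in WT mice) and Lbp, Lcn2 and Cp (1.31 to 1.36 and 0.89 to 2.05). Every DSS array was above every untreated array for 3 of 6 members and for 4.76% of all tested genes (619).

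**Figure D2:**
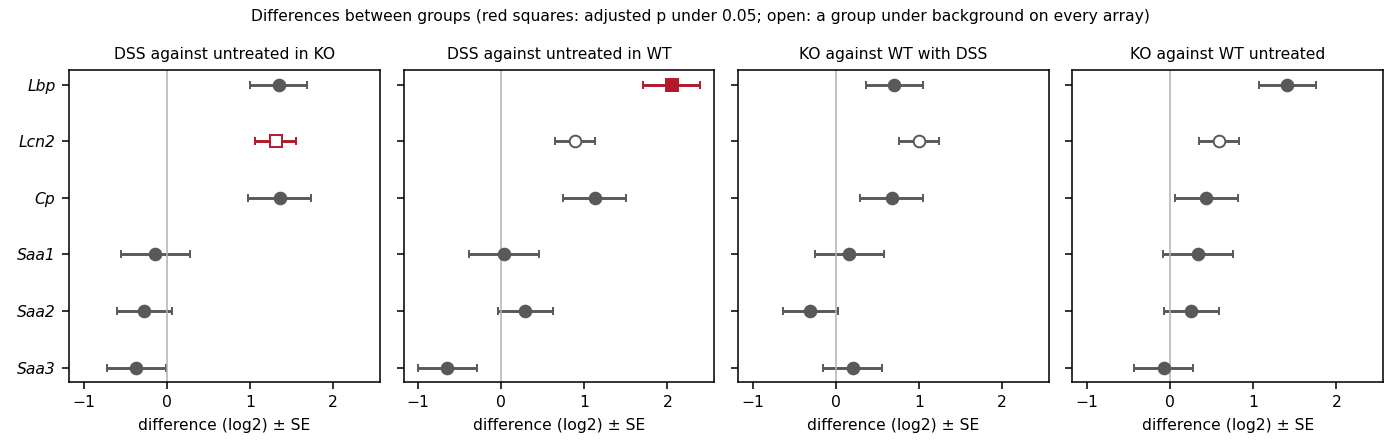
Log2 differences ± SE (x axis) of the 6 tested acute phase genes in 4 comparisons, 1 per panel. Red squares passed at an adjusted p under 0.05, grey circles did not, and open symbols mark a comparison in which a group was under background on every array. Only Lbp in WT mice and Lcn2 in KO mice passed, and the Saa genes lie around 0.

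Between genotypes, the means of Lbp, Lcn2 and Cp were higher in KO than in WT mice in both treatments, and none of these differences passed. With DSS, both KO arrays were above both WT arrays for Lbp (0.71 ± 0.34, adjusted p = 0.507) and for Lcn2. For Lcn2 the KO signal was at least 1.41-fold higher, and the measured signals differed by 1.003 ± 0.24 (adjusted p = 0.154). Cp overlapped between the genotypes with DSS (0.67 ± 0.38, adjusted p = 0.576). Its difference ranged between 0.084 (without replicate 1 of KO with DSS) and 1.26 (without replicate 2) when single arrays were left out, and turned to -0.28 without both arrays with pancreatic transcripts. Untreated, KO arrays were above WT arrays for Lbp (1.41 ± 0.34, adjusted p = 0.145), Lcn2 (0.59 ± 0.24, adjusted p = 0.677, both groups under background) and Cp (0.44 ± 0.38, adjusted p = 0.999). Such separation of 2 arrays from 2 was common: it held for 16.1% of all tested genes with DSS and for 17.5% untreated. No member passed in either comparison, against 0.354% of all tested genes with DSS (46 genes) and 0.392% untreated (51 genes). Lbp passed in untreated mice only when arrays were weighted by their quality (adjusted p = 0.0344).

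The Saa genes overlapped between genotypes in both treatments. Saa1 differed by 0.17 ± 0.42 with DSS (adjusted p = 0.924) and by 0.34 ± 0.42 untreated (adjusted p = 0.999). Saa2 differed by -0.30 ± 0.33 with DSS and 0.25 ± 0.33 untreated, and Saa3 by 0.20 ± 0.36 with DSS and -0.08 ± 0.36 untreated, with adjusted p between 0.786 and 0.999. Averaged over treatments, the genotype difference was 1.06 ± 0.24 for Lbp (adjusted p = 0.0842), 0.79 ± 0.17 for Lcn2 (adjusted p = 0.0711) and 0.55 ± 0.27 for Cp (adjusted p = 0.490), and 0 of 6 members passed, against 0.677% of all tested genes (88). Without replicate 1 of WT untreated Lbp passed (1.34, adjusted p = 0.0373), and without replicate 2 of KO with DSS Lcn2 passed (0.85, adjusted p = 0.0372).

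Whether the DSS difference itself changed with genotype was tested as an interaction, and 0 of 6 members passed, against 0.0769% of all tested genes (10 genes). None of the 6 had an unadjusted p under 0.05 in this test. For Lbp the DSS difference in KO minus that in WT was -0.70 ± 0.48 (95% interval -1.77 to 0.36), for Lcn2 it was 0.42 ± 0.34 (-0.33 to 1.17), and for Cp 0.23 ± 0.54 (-0.94 to 1.41). So passing in 1 genotype and not in the other does not show that Lbp or Lcn2 responded differently in them.

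The same order of group means held for Lbp, Lcn2 and Cp: KO with DSS, WT with DSS, KO untreated and WT untreated, high to low. For Lbp these means were 8.88 ± 0.35, 8.17 ± 0.11, 7.53 ± 0.22 and 6.12 ± 0.79 (SD, n = 2 each). Neighbours of the same treatment did not differ by the test, and WT with DSS against KO untreated differ in both factors and were not tested. Over the 8 arrays Lcn2 correlated with Cp (Pearson r = 0.890, Spearman rho = 0.952) and with Lbp (r = 0.854, rho = 0.929), and Lbp with Cp (r = 0.702, rho = 0.833). Lcn2 was above background only in KO with DSS, so the order of its other groups and its correlations rest partly on signals under background. All members share the 8 arrays and the 4 groups, so the correlations are descriptions.

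Saa1 and Saa2 followed another pattern, with r = 0.865 and rho = 0.881 between them and no common order by group. In each of the 4 groups, the replicate with the higher Saa1 signal also had the higher Saa2 and the higher Saa3 signal. How many of all tested genes share this order of replicates was not counted, so it is a description. The gaps between replicates were large for Saa1: 0.66 in KO with DSS, 0.63 in KO untreated, 1.05 in WT with DSS and 0.99 in WT untreated, against median gaps over all tested genes of 0.33, 0.20, 0.30 and 0.24 in the same groups. In Saa3 the gap in WT untreated was 0.03, while it was 0.73 to 0.83 in the other groups. Saa1 correlated little with Lbp (r = 0.216), Lcn2 (0.120) and Cp (0.215).

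**Figure D3:**
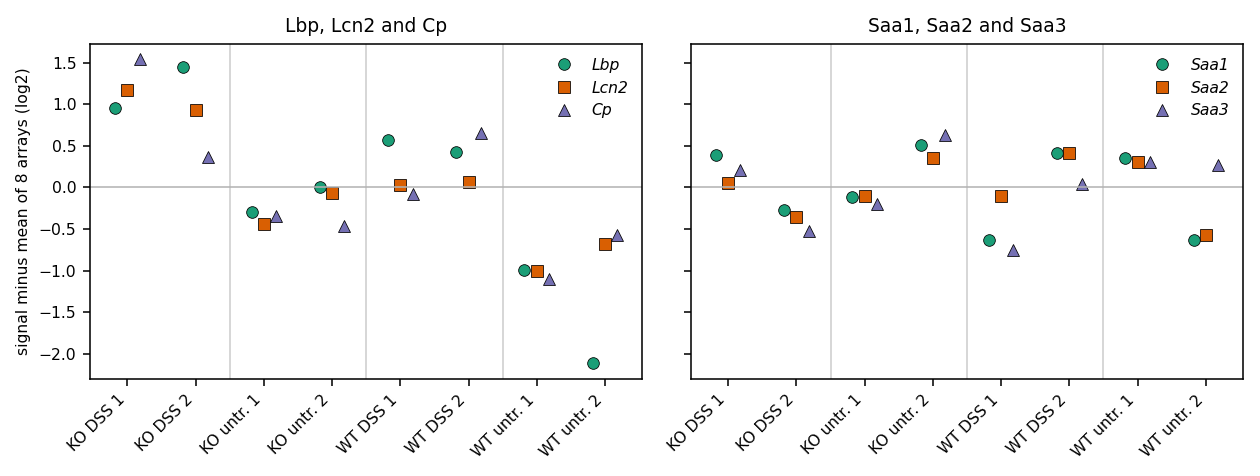
Signal of each member minus its mean over the 8 arrays (log2, y axis), by array (x axis; KO with DSS, KO untreated, WT with DSS, WT untreated, replicates 1 and 2). Lbp, Lcn2 and Cp (left panel) run high in KO with DSS and low in WT untreated, whereas Saa1, Saa2 and Saa3 (right panel) go up and down together between replicates of a group.

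The genes with the most similar pattern over the 8 arrays were named for each member by Pearson correlation. For Lbp they were Adgrl4 (r = 0.978), Hspa2 (0.970) and Scn7a (0.956), for Lcn2 Cacng7 (0.978), Thy1 (0.970) and Pcsk6 (0.967), and for Cp Fli1 (0.974), Ltbp4 (0.973) and Galnt5 (0.970). The number of genes with r over 0.9 was 63 for Lbp, 61 for Lcn2 and 157 for Cp, but only 6 for Saa1, 3 for Saa2 and 18 for Saa3. Nearest to Saa1 were Cfap53 (0.944), Ust (0.936) and Stmn3 (0.924), to Saa2 Txnip (0.935), Whamm (0.920) and Clk1 (0.912), and to Saa3 Il15ra (0.965), Prpf8 (0.960) and Pard6a (0.960). Hspa2, Cfap53, Ust and Cacng7 were under background on every array. Among the neighbours of Lbp, Scn7a had 8.58 and 8.43 in KO with DSS, against 7.60 and 6.98 in KO untreated. WT arrays had 8.13 and 8.28 with DSS, against 6.09 and 4.85 untreated, the last under background. Its WT difference of 2.73 ± 0.36 passed (adjusted p = 0.00128), and no exact fold is given. Scn7a was chosen by its correlation with Lbp over these same arrays, so its call is not separate support for that of Lbp.

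Markers of other cell types also differed between the groups that differed in Lbp, Lcn2 and Cp. The 11 fibroblast markers had a mean signal of 10.82 and 9.97 in KO with DSS, against 8.85 and 8.55 in KO untreated. In WT mice it was 9.90 and 10.55 with DSS, against 7.33 and 7.64 untreated. Of 10 tested, 6 were higher with DSS in KO mice (Dcn among them) and 8 in WT mice, and 2 (Dcn and Sparc) were higher in untreated KO than untreated WT mice. Over all tested genes, 0.931% passed with DSS in KO mice, 4.04% in WT mice and 0.392% between untreated genotypes. The 10 endothelial markers averaged 8.17 and 7.60 in KO with DSS, 7.01 and 6.88 in KO untreated, 7.48 and 7.69 in WT with DSS, and 6.17 and 6.14 in WT untreated. The 12 macrophage markers averaged 8.10 and 7.49, 6.75 and 6.41, 7.33 and 7.74, and 6.01 and 6.16 on the arrays of KO with DSS, KO untreated, WT with DSS and WT untreated. With DSS, 3 of 10 endothelial and 4 of 11 tested macrophage markers were higher in KO mice, and 5 of each list in WT mice. The part of these cells in the differences of Lbp, Lcn2 and Cp was not tested, and in such a mixture more cells of a type and more RNA per cell cannot be told apart.

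The other lists gave other patterns. Neutrophils, which store Lcn2 protein, had list means of 4.57 to 4.79, and 0 of 3 tested markers passed. Of 13 markers with a row, 2 were above background on any array. These were Elane, on all 8 arrays (6.50 to 6.89), and Retnlg, on replicate 1 of WT with DSS (6.09). The others, S100a8, S100a9 and Mpo among them, were under background on every array. Hepatocyte markers averaged 5.77 to 6.09 over all 8 arrays, with 3 or 4 of 12 above background on an array. Of 6 tested, only Tat passed, lower in KO than in WT mice with DSS. Smooth muscle markers averaged 14.25 and 12.25 in KO with DSS, 13.19 and 13.41 in KO untreated, 12.34 and 11.77 in WT with DSS, and 10.74 and 11.69 in WT untreated. Of 8 tested, only Pln passed, higher in KO than in WT mice untreated and averaged over treatments. Of 10 tested pancreas markers, only Cela1 passed, higher with DSS in WT mice and averaged over genotypes. Cela1 was above background on all 8 arrays and did not follow the list mean. On replicate 2 of KO with DSS and of WT with DSS it had 15.39 and 15.13, where the list means were 6.12 and 6.13. Of 10 adipocyte markers 4 were above background on every array (Fabp4, Pck1, Lpl and Cidec) and the others, Adipoq, Plin1 and Lep among them, on none, and the list means ran from 6.39 to 6.77. Fabp4, which endothelium also expresses, had 9.99 and 9.95 in KO with DSS, against 9.67 and 8.58 in KO untreated. WT arrays had 10.25 and 10.28 with DSS, against 7.34 and 7.32 untreated. It was higher with DSS in WT mice (2.93 ± 0.31, adjusted p = 0.000305) and in untreated KO against untreated WT mice (1.79 ± 0.31, adjusted p = 0.0373). Of 8 mesothelial markers 4 were above background on at least 1 array, among them Krt19, which epithelium shares, on 8 arrays, Upk3b on 7 and Gpm6a on 4, while Msln and Wt1 were on none. The mesothelial list means ran from 6.30 to 7.03, and none of its 5 tested genes passed with DSS in either genotype. Of the B and plasma cell list only Jchain was tested, and it was higher with DSS in both genotypes. It had 15.61 and 15.15 in KO with DSS, against 13.06 and 12.09 in KO untreated. WT arrays had 14.61 and 15.42 with DSS, against 11.76 and 12.76 untreated. Its difference was 2.81 in KO mice (adjusted p = 0.0129) and 2.75 in WT mice. None of 4 tested T cell markers passed in any comparison.

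**Figure D4:**
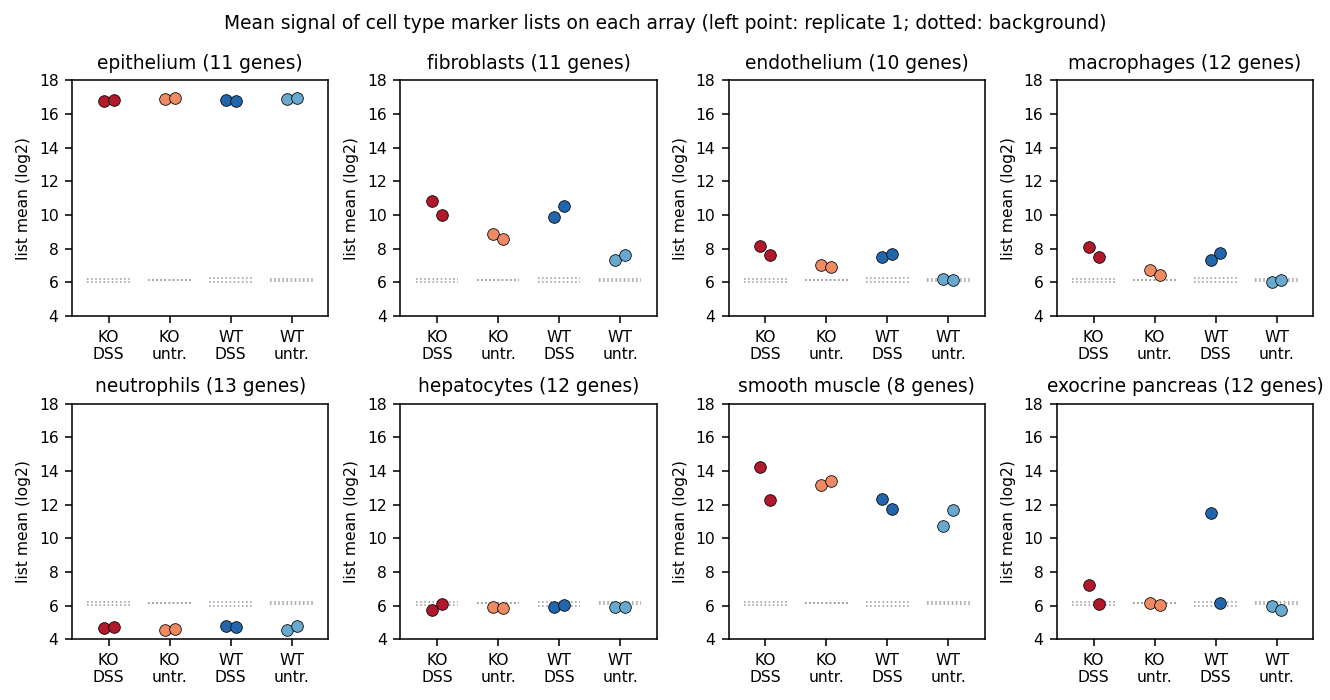
Mean log2 signal of 8 lists of cell type markers on each array (y axis), by group (KO with DSS, KO untreated, WT with DSS, WT untreated). Points are arrays, with replicate 1 on the left, and dotted lines are the background. The mean of the epithelial list is level, and those of the fibroblast, endothelial and macrophage lists are higher on the DSS arrays. The pancreas list stands out on replicate 1 of WT with DSS.

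Other acute phase genes were read against the same background. On each array the median signal of all rows, controls included, also lay under it. The share of all genes under background was not counted, so the next count is a description. Of 25 further acute phase genes with a row, 14 were under background on every array. They included the classical liver products Orm1, Orm2, Orm3 (acid glycoproteins), Apcs (serum amyloid P), Crp, Hpx (hemopexin), A2m, Saa4 and the fibrinogen chains Fga, Fgb and Fgg. Of 13 tested, 2 were higher with DSS in each genotype, Serpina3n and Serping1. Over all tested genes 0.931% passed in KO mice and 4.04% in WT mice. The list median was 0.39 in KO mice and -0.03 in WT mice, beside -0.04 and -0.05 over all tested genes. Serpina3n, a serine protease inhibitor, had 8.32 and 8.18 in KO with DSS, against 6.02 and 5.25 in KO untreated. WT arrays had 8.68 and 8.89 with DSS, against 5.42 and 5.44 untreated. It rose with DSS by at least 4.27-fold in KO mice (adjusted p = 0.00167) and at least 6.26-fold in WT mice (adjusted p = 5.73e-05). Serping1, the inhibitor of complement C1, had 11.36 and 10.79 in KO with DSS, against 9.42 and 9.06 in KO untreated. WT arrays had 10.96 and 11.20 with DSS, against 7.49 and 7.94 untreated. Its DSS difference was 1.83 ± 0.28 in KO mice (adjusted p = 0.0130) and 3.36 ± 0.28 in WT mice (adjusted p = 5.73e-05). In KO mice the Serping1 call was lost without replicate 2 of KO untreated or replicate 1 of KO with DSS and in the 4 arrays alone, with differences between 1.55 and 2.12 over the alternatives.

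Serpina1a, an alpha-1-antitrypsin, differed by genotype. It had 7.15 and 7.21 in KO with DSS and 7.36 and 7.26 in KO untreated, against 5.64 and 5.88 in WT with DSS and 5.97 and 5.92 in WT untreated, so that all KO arrays and no WT array were above background. The KO signal was at least 2.08-fold higher with DSS (adjusted p = 0.0226) and at least 2.26-fold higher untreated (adjusted p = 0.0292). Averaged over treatments the difference was 1.39 ± 0.16 (adjusted p = 0.00189), and this call held in all 17 alternatives. Within 1 treatment the call was lost when single arrays were left out, any of the 4 untreated arrays for the untreated comparison and either untreated WT array, replicate 1 of WT with DSS or replicate 1 of KO with DSS for the comparison with DSS, while the difference stayed between 1.30 and 1.54. With DSS it was also lost without both arrays with pancreatic transcripts (1.33, adjusted p = 0.0829), with array weights and in the 4 arrays alone. Serping1 was also higher in untreated KO mice (1.53 ± 0.28, adjusted p = 0.0447), a call kept in 9 of 18 alternatives. It was lost without any 1 of the 4 WT arrays or of the 2 untreated KO arrays (1.30 to 1.75), with array medians set equal (1.48, adjusted p = 0.0504) and with quantile normalization (1.53, adjusted p = 0.113).

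Upstream of the members, cytokine genes were read in the same way, again without a share over all genes. Of 15 inducing cytokines with a row, 6 were above background on at least 1 array and 6 were tested. Il6, Il22, Il17a and Osm were under background on every array. None of the 6 passed with DSS in KO mice (list median 0.0042), and 3 were higher in WT mice (list median 0.72), against 0.931% and 4.04% of all tested genes. Il1b had 8.45 and 6.97 in KO with DSS, against 6.11 and 6.22 in KO untreated. In WT mice it had 7.74 and 8.28 with DSS, against 6.06 and 6.19 untreated, a rise of at least 3.67-fold (adjusted p = 0.0207). Il18, made by epithelium, differed by 1.34 ± 0.24 in WT mice (adjusted p = 0.00815), and the alarmin Il33 by 1.37 ± 0.24 (adjusted p = 0.00699). Without replicate 2 of WT untreated none of the 3 calls passed, and those of Il1b and Il18 were also lost without replicate 2 of WT with DSS and that of Il1b without replicate 1 of WT untreated and with quantile normalization. The WT difference over the alternatives lay between 1.62 and 2.15 for Il1b, 1.203 and 1.48 for Il18, and 1.24 and 1.497 for Il33. Averaged over genotypes the same 3 genes were higher with DSS, against 5.52% of all tested genes. That call was kept in all 17 alternatives for Il18 (1.06 to 1.25) and Il1b (1.34 to 2.08), and in 7 of 17 for Il33. None of the 6 passed the interaction, so these calls do not show a cytokine response in WT mice only.

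Against the same shares of all tested genes (0.931% and 4.04%), 0 of 20 tested receptors and signal transducers passed in KO mice (list median 0.08). In WT mice 2 were higher with DSS (0.15). These were Il6st, the shared signalling chain of Il6-type receptors (1.26 ± 0.24, adjusted p = 0.0105), and Il6ra (at least 1.58-fold, adjusted p = 0.0467), which lost its call when any array of WT mice or of untreated KO mice was left out (0.91 to 1.14), without both arrays with pancreatic transcripts (0.95, adjusted p = 0.0606), under both scalings tried and with no filter on low values. The Il6st call was lost without either untreated WT array or replicate 2 of WT with DSS (1.07 to 1.46). The 13 tested transcription factors had list medians of -0.06 in KO mice and 0.01 in WT mice. Of these only Cebpd, a C/EBP factor induced in the acute phase, was higher with DSS in WT mice (1.196 ± 0.28, adjusted p = 0.0384). Its signals were 13.26 and 13.33 in KO with DSS, against 12.15 and 12.07 in KO untreated. WT arrays had 13.44 and 12.93 with DSS, against 12.34 and 11.64 untreated. Averaged over genotypes Cebpd rose by 1.19 ± 0.20 (adjusted p = 0.00439), a call kept in all 17 alternatives, whereas the call in WT mice was kept in 10 of 18 (0.84 to 1.55). Leaving out replicate 2 of WT untreated, either array of WT with DSS or either array of KO untreated ended it, as did setting array medians equal, taking the 4 arrays alone, and leaving out both arrays with pancreatic transcripts (0.94, adjusted p = 0.0938).

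Partners of Lbp and of the Saa proteins moved in both directions. The lipopolysaccharide list had a median of 0.01 in KO mice and 0.30 in WT mice, and the Saa partner list one of 0.15 and 0.21. Over all tested genes 0.931% passed with DSS in KO mice, 4.04% in WT mice and 0.392% between untreated genotypes. Of 8 tested genes of lipopolysaccharide recognition, Tlr2, a receptor of bacterial lipoproteins, was lower with DSS in KO mice, at 10.21 and 10.01, against 11.34 and 11.59 untreated (-1.36 ± 0.24, adjusted p = 0.0239). In WT mice Tlr2 had 10.82 and 11.12 with DSS, against 11.52 and 11.75 untreated, and did not pass. Averaged over genotypes Tlr2 was lower with DSS, a call kept in all 17 alternatives (-1.08 to -0.93), where 5.52% of all tested genes passed. It did not pass the interaction. Ly86, a partner of the Tlr4 homologue Cd180, was higher with DSS in WT mice by at least 2.92-fold (adjusted p = 0.00505), a call lost without replicate 1 of WT untreated or replicate 2 of WT with DSS (1.90 to 2.34). Ly96, which joins Tlr4 in binding lipopolysaccharide, lay between 12.41 and 13.23 on all arrays and passed in no comparison. Cd36, a scavenger receptor that also binds Saa, was higher with DSS in WT mice by at least 3.61-fold (adjusted p = 0.000563). It was also higher in untreated KO than untreated WT mice, by at least 1.81-fold (adjusted p = 0.0368), a call lost without either untreated WT array or replicate 1 of KO untreated and with quantile normalization (1.596 to 2.43 over the alternatives). The Tlr2 call in KO mice was lost without either untreated KO array or replicate 1 of KO with DSS, with quantile normalization and in the 4 arrays alone (-1.48 to -1.23).

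In place of C3, genes of the same cascade were read from 15 tested complement genes. With DSS 3 were higher in KO mice and 5 in WT mice, against 0.931% and 4.04% of all tested genes. The list medians were 0.88 and 1.14, beside -0.04 and -0.05 over all tested genes. C1qc and C1qb, chains of the recognition molecule that macrophages make and members of the macrophage list too, rose by at least 3.04-fold and 2.24-fold in KO mice (adjusted p = 0.00596 and 0.0158) and by at least 1.72-fold and 1.47-fold in WT mice (adjusted p = 0.00108 and 0.00452). The protease C1s1 differed by 1.49 ± 0.25 in KO mice (adjusted p = 0.0203) and 2.41 ± 0.25 in WT mice (adjusted p = 0.000279). C1ra, the partner protease, and Cd55, which protects cells from complement, were higher in WT mice by 2.44 ± 0.34 (adjusted p = 0.0017) and 1.57 ± 0.26 (adjusted p = 0.00507). In KO mice the C1qb and C1s1 calls were lost without either untreated KO array or replicate 1 of KO with DSS, and the C1qc call without replicate 2 of KO untreated (1.72 to 2.79 for C1qb, 1.27 to 1.72 for C1s1 and 1.90 to 2.69 for C1qc). All 3 were lost in the 4 arrays of the comparison alone, and C1s1 also without both arrays with pancreatic transcripts (1.27, adjusted p = 0.0621). In WT mice those of C1qb and Cd55 were lost without replicate 1 of WT untreated (1.84 to 2.65 and 1.46 to 1.68). The 18 tested genes of iron and copper handling had medians of -0.10 in KO mice and -0.21 in WT mice. Of them only Trf (transferrin) passed, higher with DSS in WT mice by 2.01 ± 0.35 (adjusted p = 0.00738), a call lost without replicate 1 of WT untreated or replicate 1 of WT with DSS (1.69 to 2.34). The ferritin genes Fth1 and Ftl1 and the others of that list did not pass.

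**Figure D5:**
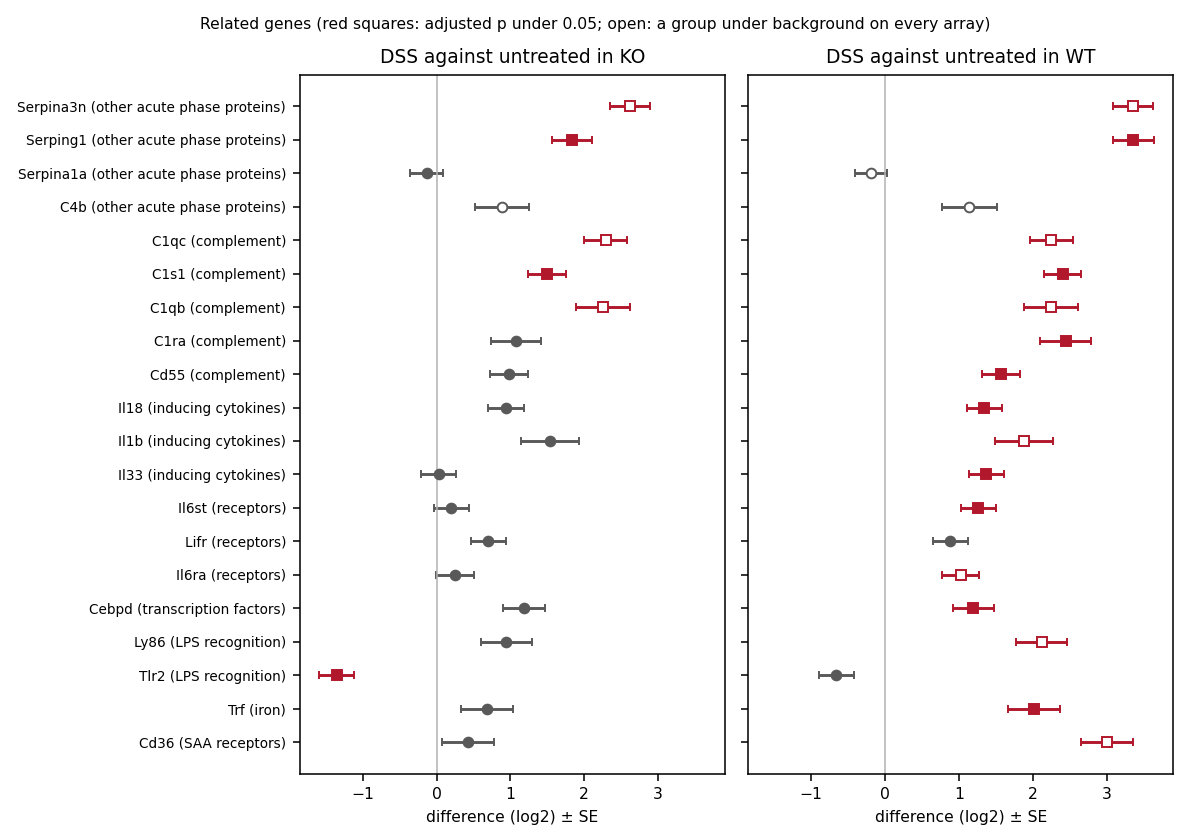
Log2 differences ± SE (x axis) with DSS in KO (left panel) and WT mice (right panel) for related genes, with their list in brackets. Drawn are genes taken by the naming rule that passed in any of the 4 pairwise comparisons or for DSS averaged over genotypes. C1qa and C7 passed averaged over genotypes but were not taken by that rule and are not drawn. Red squares passed at an adjusted p under 0.05, and open symbols mark a comparison with a group under background. Serpina3n, Serping1, C1qc, C1qb and C1s1 passed in both genotypes, and Tlr2 in KO mice was the only one to pass with a lower signal.

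Taking the 95th percentile of the negative controls as background, at 8.14 to 8.56, left Saa1 above it on all 8 arrays, Saa3 on 6, Lbp on 3, Saa2 and Cp on 1 each, and Lcn2 and Hp on none. By that stricter measure the rises of Lbp in WT mice and of Lcn2 in KO mice have no fold that can be given.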

How the data were processed

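Expression was measured on 8 Affymetrix arrays, 2 in each of 4 groups defined by genotype and DSS, from column-purified total RNA of colon epithelial cells, per the labels' protocols. The authors deposited log2 signal values, made with Affymetrix Expression Console per the submitters' processing notes. No source used here states the normalization or background correction, and nothing further was normalized.

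The table held 28846 rows, of which 6640 were controls. Rows were named through the platform annotation, where 19572 rows had 1 symbol, all found in the RefSeq table by Entrez number. Where a symbol had more than 1 row (55 genes), the brightest by mean stood for it. Genes with a mean under 5.15, which were the lowest 33.3%, were removed, leaving 13003 to test. The main test was limma 3.58.1 under R 4.3.3 (lmFit and eBayes on 4 group means over the 8 arrays, with 4 residual and 7.27 prior degrees of freedom). Each of 7 comparisons was tested two-sided at a threshold of 0.05, after adjusting p by Benjamini-Hochberg across the tested genes. The p-values reflect only how far these samples vary. An exact permutation test of 2 arrays against 2 cannot go below p = 0.333, and none was run. Array medians lay between 5.93 and 6.09, and the number of arrays limits the precision. The fit was tested on simulated data.

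Where every array of a group was under background, only a lower bound is given: the bright group's mean against, per array of the other group, the higher of its background and the gene's own signal. Promoter windows came from RefSeq (GRCm38.p6) and were searched and aligned with Python 3.11.15 and Biopython 1.88. The files name no genome build.

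The genes and lists were chosen with earlier results of these data known. The naming rule took all 8 members, the 3 genes of highest correlation with each, and Sgms2 and the Y-linked genes as checks of the labels. It also took up to 4 genes that passed and 2 of highest mean from each related list, and up to 3 of highest mean from each cell type list. Not all genes that the rule took from the lists are printed. Markers, cytokines and acute phase genes under background, and Reg3g, Hamp, Cidec, Retnlg, Krt20, Pln, C1qa and C7, were named outside this rule, after their values were seen. Replicate numbers were checked for pairing: correlations of same-numbered deviations between groups lay between -0.246 and 0.276, so the numbers do not pair the arrays. Alternatives covered the filter, scaling, the replicate block, variance model, rows per gene, array weights, which arrays enter, and the background level.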

Additional observations from a re-analysis of the deposited data

How the results depend on the processing

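Over the 6 tested members and 7 comparisons, 731 alternative values were computed. Of these, 665 kept direction and side of the threshold, 11 no longer passed, 5 newly passed, and 50 changed direction, all of them in differences that had not passed. The calls that changed for Lbp, Lcn2 and Cp stand beside their values above, except that Lcn2 in KO mice also missed the threshold with the 4 arrays of the comparison alone (1.31, adjusted p = 0.123) and was removed by a filter on the lowest 50% of genes, which left 0 members past the threshold there. Of 55 calls of related and neighbouring genes, 27 held in every alternative. Signal over background limits Lcn2 most, as 2 of its 8 arrays were above it. The causes of these changes were not tested.

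Directions changed as follows. With array medians set equal, Saa1 in WT mice with DSS gave -0.051 and Saa2 averaged over genotypes -0.065. This scaling moved the median DSS difference of all genes to -0.10 in KO mice, -0.13 in WT mice and -0.12 averaged, against -0.04, -0.05 and -0.04, and the split of genes past the threshold with DSS averaged to 392 higher and 400 lower, against 451 and 267. With quantile normalization Saa2 averaged over treatments gave 0.0060, and the interaction had 5 higher and 2 lower genes, against 6 and 4. Without both arrays with pancreatic transcripts, KO against WT with DSS gave -0.69 for Saa1, -0.56 for Saa3 and -0.28 for Cp, the interaction -0.48 for Saa3 and -0.72 for Cp, the DSS average 0.045 for Saa1, and the genotype average -0.18 for Saa1 and -0.32 for Saa3.

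Leaving out 1 array at a time, the DSS difference in KO mice ranged between -0.47 and 0.19 for Saa1 and between -0.78 and 0.048 for Saa3, and in WT mice between -0.49 and 0.56 for Saa1 and between -0.15 and 0.73 for Saa2. KO against WT with DSS ranged between -0.36 and 0.69 for Saa1 and between -0.19 and 0.60 for Saa3, and untreated between -0.16 and 0.83 for Saa1, -0.18 and 0.69 for Saa2, and -0.49 and 0.34 for Saa3. The interaction ranged between -0.70 and 0.35 for Saa1, -0.13 and 0.70 for Saa3, and -0.35 and 0.82 for Cp. The DSS average ranged between -0.32 and 0.21 for Saa1 and -0.21 and 0.23 for Saa2, and the genotype average between -0.011 and 0.51 for Saa1, -0.24 and 0.19 for Saa2, and -0.15 and 0.27 for Saa3.

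The number of genes past the threshold ranged, over the fits without 1 array, between 18 and 297 for DSS in KO mice, 215 and 716 for DSS in WT mice, 24 and 215 for KO against WT with DSS, 3 and 132 untreated, 5 and 26 for the interaction, 396 and 1054 for the DSS average, and 28 and 362 for the genotype average. The number of members past the threshold ranged between 0 and 2 for DSS in KO mice, 0 and 1 in WT mice, and 0 and 1 for the genotype average. DSS in KO mice had 70 genes with quantile normalization and 14 genes, with 0 members, in its 4 arrays alone. Without both arrays with pancreatic transcripts there were 0 members for DSS in KO mice, 988 genes and 2 members in WT mice, 252 genes for KO against WT untreated, 36 for the interaction and 185 for the genotype average. KO against WT with DSS had 30 genes with quantile normalization, 70 with trended and robust moderation and 21 with array weights. Untreated it had 22 with quantile normalization, 241 with array weights (1 of them a member, Lbp), and 252 in its 4 arrays alone.

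With the replicate number as a block, no call of a member changed, and among related genes Serping1 in untreated KO against untreated WT mice (adjusted p = 0.0675), C4b and Il33 averaged over genotypes (adjusted p = 0.0574 and 0.0504) no longer passed. There were 102 genes past the threshold for DSS in KO mice, 474 in WT mice, 45 for KO against WT with DSS, 48 untreated, 10 for the interaction, 699 for the DSS average and 94 for the genotype average.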

Other observations

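A pair of epithelial genes of the acute phase list, the antimicrobial lectins Reg3b and Reg3g, passed in no comparison and varied more between replicates than any Saa gene in KO mice. Reg3b had 17.72 and 14.42 in KO with DSS, against 15.02 and 17.75 in KO untreated. WT arrays had 16.47 and 17.27 with DSS, against 17.37 and 17.01 untreated. In all 4 groups the array with more Reg3b was the one with more Saa1. The share of all tested genes with that order of replicates was not counted, so this is a description. Reg3g had 15.28 and 11.59 in KO with DSS, against 12.50 and 15.61 in KO untreated. WT arrays had 15.76 and 15.35 with DSS, against 14.25 and 14.77 untreated. Its order of replicates was opposite to that of Saa1 in both WT groups. The hepcidin gene Hamp, an acute phase regulator of iron export, was above background on all 8 arrays, at 7.10 and 7.46 in KO with DSS, 6.81 and 7.08 in KO untreated, 6.94 and 6.89 in WT with DSS, and 7.09 and 7.29 in WT untreated, and passed in no comparison.

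Serpina1b, a close copy of Serpina1a, was under background on every array, with 4.31 and 4.53 in KO with DSS and 4.05 and 4.09 in KO untreated, against 3.53 and 3.27 in WT with DSS and 3.30 and 3.43 in WT untreated. Its KO arrays were all above its WT arrays, as for Serpina1a. These signals under background give no level, and the filter on low values removed Serpina1b before the test. The share of all genes with such a separation was not counted. No source used here says whether the rows of such copies read each other's RNA.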
